A study of Mus musculus with 4 samples.

Results

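Open chromatin in mouse fetal liver was examined at the regions that lay at the edges of genes and were open in every library. Peaks of 4 lists on chromosomes 1 to 19 and X were merged wherever they shared at least 1 bp, which gave 55274 regions, and 27465 of these had a peak in all 4 libraries and are called shared. A shared region was kept when its summit, taken from its highest-ranked peak by fold, lay 1 kb or less from either end of a RefSeq protein-coding gene. This left 11363 gene-boundary regions, 41.4% of the shared regions and 20.6% of all regions. The regions were thus chosen by the presence of peaks, the fold of those peaks and the position of the summit, and their presence in all libraries and closeness to a gene end are not results. The other shared regions, 9862 inside genes and 6240 outside genes, are used only for comparison.

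A promoter is the stretch of DNA around a gene's start where transcription factors and RNA polymerase assemble. At an active promoter the nucleosomes are moved aside, and the transposase used in ATAC-seq can cut the bare DNA. Many mammalian promoters lie in CpG islands, stretches rich in the CG dinucleotide that are mostly unmethylated and open in many cell types, while promoters of tissue-specific genes often lack them. Red cells of the embryo are made chiefly in the fetal liver, where erythroid precursors outnumber hepatocytes.

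Both genotypes came from livers of embryonic day 14.5, and about 50000 cells per reaction were processed by the Omni-ATAC protocol. The 4 libraries were WT replicates 1 and 2 and Hemgn KO replicates 1 and 2. Hemogen, the product of Hemgn, is found in the nucleus of blood-forming cells. The series title pairs it with BRG1, which uses ATP to slide and evict nucleosomes within BAF complexes. The strain, the kind of knockout allele and whether replicates were separate embryos are not given in the labels, so the spread between replicates may be technical. No sorting of the liver cells is described, so a change in the share of a cell type and a change within its cells cannot be told apart.

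In replicate order, WT lists had 47845 and 34167 peaks, whereas KO lists had 35415 and 43005. The library background, a measure of relative depth recovered from the lists, was 5.67 and 2.29 fragments in WT and 2.49 and 3.8 in KO. Of 8 erythroid marker genes, 7 had a gene-boundary region, and Gata1 had a shared region at another of its starts. Of the defining markers of other cells, Hnf4a of hepatocytes, Spi1 of macrophages, Kdr of endothelium and Itga2b of megakaryocytes had one, and 0 of 4 granulocyte and 0 of 3 lymphocyte markers did. The region at the start of Hemgn itself (chr4:46403640-46405019) had 265 and 118 fragments at its summit in WT and 127 and 199 in KO. After scaling to a common depth these values became 146 and 169 for WT and 168 and 184 for KO, so the groups overlapped (log2 difference 0.16 ± 0.14, SE; limma adjusted p = 0.61). Accessibility at the gene's start does not measure its product, so it checks nothing about the labels.

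The sequences just before the start of 6 genes show the range of promoters met below. The first 2 belong to regions with the highest ranks, Hbb-bs is the adult beta-globin gene, Bach1 encodes a heme-responsive repressor, Smarcd1 encodes a BAF subunit, and Afp, the fetal liver protein alpha-fetoprotein, had no gene-boundary region. Each is the 200 bases before the start, 5′ to 3′ along the gene, from the RefSeq table of GRCm38.p6. Capitals mark matches, on either strand, to GGGCGG (the GC box of SP and KLF factors), CCAAT (NFY), CCGGAAG (ETS), the NRF1 motif, AGATAA (the site of factors such as GATA1), TATAAA (the core promoter box) and AAGATGGCG (YY1).
2310009B15Rik (chr1:138856855-138857054, minus strand): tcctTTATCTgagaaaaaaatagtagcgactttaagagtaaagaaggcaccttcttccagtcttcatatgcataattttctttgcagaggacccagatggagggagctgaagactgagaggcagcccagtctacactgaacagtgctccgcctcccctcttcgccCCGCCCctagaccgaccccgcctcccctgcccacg
N6amt1 (chr16:87353985-87354184, plus strand): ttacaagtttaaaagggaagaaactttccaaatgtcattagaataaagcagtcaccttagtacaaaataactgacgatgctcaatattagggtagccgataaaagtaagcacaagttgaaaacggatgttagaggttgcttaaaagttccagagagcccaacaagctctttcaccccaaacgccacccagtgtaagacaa
Hbb-bs (chr7:103827929-103828128, minus strand): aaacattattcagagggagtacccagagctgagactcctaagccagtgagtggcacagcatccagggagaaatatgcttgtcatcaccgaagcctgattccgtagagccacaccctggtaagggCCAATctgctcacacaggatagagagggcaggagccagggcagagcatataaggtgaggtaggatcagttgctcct
Bach1 (chr16:87698754-87698953, plus strand): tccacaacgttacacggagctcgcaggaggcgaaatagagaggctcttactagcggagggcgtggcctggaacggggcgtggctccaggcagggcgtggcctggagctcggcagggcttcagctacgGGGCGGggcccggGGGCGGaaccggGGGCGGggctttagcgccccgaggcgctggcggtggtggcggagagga
Smarcd1 (chr15:99702087-99702286, plus strand): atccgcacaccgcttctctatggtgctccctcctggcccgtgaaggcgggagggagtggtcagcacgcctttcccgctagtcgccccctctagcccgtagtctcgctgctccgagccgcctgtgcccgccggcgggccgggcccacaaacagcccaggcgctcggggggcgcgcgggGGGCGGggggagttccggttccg
Afp (chr5:90490514-90490713, plus strand): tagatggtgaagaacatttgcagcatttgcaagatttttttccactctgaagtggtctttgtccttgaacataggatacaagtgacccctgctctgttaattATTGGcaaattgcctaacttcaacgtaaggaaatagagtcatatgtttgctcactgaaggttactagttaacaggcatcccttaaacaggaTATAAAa
The promoters of 2310009B15Rik, Bach1 and Smarcd1 carried a GC box, and Bach1 carried 3. That of 2310009B15Rik also carried AGATAA, on the other strand, and that of Hbb-bs carried CCAAT. The N6amt1 promoter held no match to any of these motifs, and only 4 CG dinucleotides. The Afp promoter held a CCAAT box and a TATA box and 1 CG, whereas that of Smarcd1 held 23.

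Gene-boundary regions lay mostly at gene starts. Of 21521 protein-coding genes, 12185 (56.6%) had at least 1, another 1436 had a boundary region in some libraries only, and 7900 had none. Once a boundary region was present it was usually shared, as 82.2% of 13826 boundary regions were in all 4 libraries against 38.8% of other regions. Strand was known for 80.3% of genes. Among the 8966 regions whose nearby genes all had a known strand, 94.0% lay at a gene start. In all, 8645 regions touched a start, 538 touched ends only, and 2115 touched only genes of unknown strand. Of all gene-boundary regions, 1566 lay within 1 kb of 2 genes, and 851 lay between divergent starts. Only 30 regions were near 3 genes, and 1 region was near 25 genes, most of them gamma protocadherins, which share one set of downstream exons.

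Summits sat slightly inside the gene. The median summit lay 88 bp inside the nearest start, the 25th and 75th percentiles lay 17 and 207 bp inside, and 78.7% were inside rather than before it. Starts here are the outermost annotated ends of genes. Of 17274 genes with a listed start, 12503 had one within 50 bp of that end. The part of the annotation in this inward shift was not tested. Within 200 bp of the start lay 68.6% of summits, whereas 11.9% of gene-end summits lay within 200 bp of the end. The limit of 1 kb cut through no gap in the data, since 207 regions had summits in the last 100 bp inside it and 180 shared regions had summits in the first 100 bp outside it. The 3 regions just inside the limit, all 1000 bp from a gene boundary, belonged to Rnf220, Rhd and Asb4, with lowest fold percentiles of 31.9, 1.38 and 5.55. The 3 just outside were near Cfap100, at 1001 bp, and Eno3 and Ptx3, both at 1004 bp, with 52.9, 37.1 and 31.8.

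**Figure D1:**
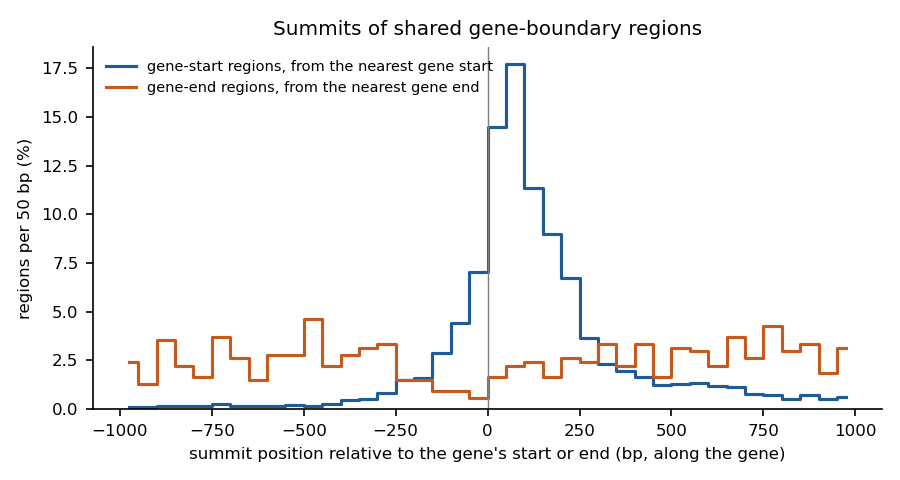
Summit position relative to the nearest gene start (8645 regions, blue) or, for regions at gene ends only, the nearest end (538 regions, orange), in bp along the gene, as percent of regions per 50 bp. Summits at starts pile up just inside the gene with a median of 88 bp, and those at ends show no such peak.

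Gene-boundary regions were wider than other shared regions in each library. The median peak width was 1039 and 977 bp in the WT libraries and 987 and 1055 bp in the KO libraries, against 695, 589, 616 and 693 bp in other shared regions. The difference was 366 ± 18.3 bp (SD, n = 4 libraries; exact sign-flip p = 0.13, the smallest that 4 libraries allow). Gene-boundary regions held 47.8% of the shared length, 13.2 of 27.6 Mb. Merged widths ran from 267 to 3980 bp with a median of 1113 bp. Compared at like rank, within each 10% step of fold, the difference was 205 bp, and with only peaks of fold 6 or more it was 202 bp.

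They also ranked higher. Each library's peaks were ranked by the authors' fold over the local background, and ranks are given as percentiles among the 27465 shared regions of that library. The median percentile of gene-boundary regions was 72.7 and 73.2 in WT and 74.1 and 73.4 in KO. Those of other shared regions were 36.3, 36.4, 34.9 and 36.1, and the difference was 37.4 ± 1.24 points (SD, n = 4; exact sign-flip p = 0.13). Fold rank also placed the summits, and the libraries score the same regions, so this difference is a description only. Of the 2038 shared regions in the top 10% of every library, 1729 (84.8%) were gene-boundary regions, and of the 1137 in the lowest 10% of every library, 199 (17.5%) were. In 69.9% of gene-boundary regions all 4 percentiles were above 50. A region's 4 percentiles spread over a median of 7.04 points, against 14.0 points in other shared regions, so libraries ranked these regions more alike.

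The high ranks belonged to gene starts. Regions at ends only had median percentiles of 30.4, 30.0, 29.1 and 27.9 in the 4 libraries, below those of regions elsewhere inside genes (35.5, 35.4, 33.8 and 34.8). Their median widths were 685, 559, 581 and 648 bp, against 716, 612, 635 and 719 bp inside genes. Regions between divergent starts were the widest class, with medians of 1208, 1182, 1178 and 1239 bp, and held the most fragments, a median of 788 in WT replicate 1 against 524 at all regions touching starts only.

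**Figure D2:**
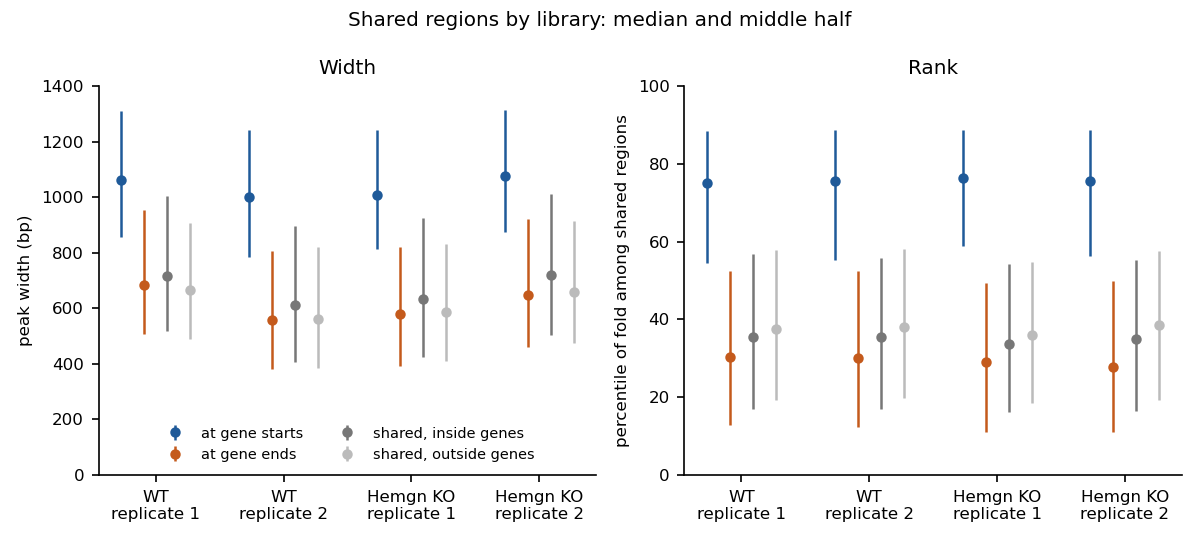
Median (point) and 25th to 75th percentile (line) of peak width in bp and of the percentile of fold among shared regions, for each library and class of shared region. Regions at gene starts are wider and rank higher in all 4 libraries, while regions at gene ends rank below regions inside and outside genes in all 4.

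Fold and the number of fragments did not rank the regions alike. Whole fragments at each summit were recovered from the authors' fold and −log10 p, and gene-boundary regions had medians of 468 and 182 fragments in WT and 214 and 283 in KO, in the order of library depth. Local background, the authors' estimate from the DNA around the peak, was 30.4, 12.7, 15.0 and 20.4 fragments. Fold divides the first by the second, so a summit with many fragments in broadly open surroundings has a low fold. Across gene-boundary regions, Spearman's rho of width with the lowest of the 4 fragment percentiles was 0.392, while with the lowest of the 4 fold percentiles it was −0.009 (n = 11363 regions, which share the same libraries; a description only). Both ranks are therefore given below.

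The regions with the highest fold ranks were narrow. The highest was a 390 bp region 684 bp from the end of Lars2, the mitochondrial leucyl-tRNA synthetase gene (chr9:123461798-123462187). It had 4543 and 2406 fragments at the summit in WT and 2420 and 3165 in KO, and the same width in every library. Regions at gene ends had a median of 87 fragments in WT replicate 1. Whether the fragments at Lars2 were placed correctly was not tested. The 9 that followed lay at 2310009B15Rik, Wdr41, N6amt1, Pex7, Rmi2, Lsm6, 9130401M01Rik, Ube2v2 and Fam204a. Pex7 encodes a receptor for import into peroxisomes, Rmi2 a subunit of a complex that dissolves DNA junctions, and Lsm6 a subunit of the ring that binds U6 RNA. The 2310009B15Rik region, 586 bp wide, had 618 and 237 fragments in WT and 354 and 374 in KO over local backgrounds of 17.0, 6.66, 9.29 and 11.1. All 4 libraries placed it above the percentile of 99.9 by fold, though its lowest percentile by fragments was 80.1.

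The widest regions were of another kind. The region over the start of Ptma (chr1:86524842-86528821), the gene of the abundant nuclear protein prothymosin alpha, spanned 3980 bp. It had 977 and 375 fragments in WT and 403 and 567 in KO over local backgrounds of 199, 101, 114 and 144. Its fold percentiles were 17.0, 7.71, 7.15 and 9.26, and its lowest fragment percentile was 88.2. Patz1, Ing1, Adgrl2, Phf12, Jun, Zfp36l2, Ctbp2, Smim1 and Sall1 followed, with widths from 3731 down to 3061 bp. At most of these, too, fold rank fell well under fragment rank: Ing1, a chromatin reader, had lowest percentiles of 22.4 by fold and 97.6 by fragments, and Zfp36l2, an RNA-binding protein that promotes mRNA decay, had 27.7 and 96.6. Sall1 was low by both, at 6.44 and 28.5.

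Most genes had 1 gene-boundary region (11364 genes), 814 had 2, and 7 had 3: Eral1, Fam131a, Gfi1b, Gm46294, Igsf3, Rhd and Snx21. Gfi1b encodes a repressor needed for red cell and platelet formation, and Rhd encodes a red cell membrane protein of the Rh complex. The 3 Gfi1b regions lay side by side over the gene's start (chr2:28620849-28621343, chr2:28621706-28622180 and chr2:28622455-28622943). Their lowest fold percentiles were 0.0328, 1.47 and 1.30 and their lowest fragment percentiles 52.4, 59.0 and 50.5. The middle region had 208 and 78 fragments in WT and 86 and 132 in KO over local backgrounds of 72.4, 26.9, 28.6 and 43.3. At 2 of the 3 Rhd regions the pattern was the same, with fold percentiles of 8.81 and 1.38 and fragment percentiles of 70.2 and 66.0.

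Genes that every cell needs nearly all had a gene-boundary region of high rank. Where a gene had several regions, the one with the highest fold rank stands for it. Over all 12185 genes with one, the median of the lowest percentile was 70.5 by fold and 74.0 by fragments. Among mitochondrial ribosomal proteins, 73 of 78 genes had a region and the medians were 85.7 and 77.9. Among complex I subunits of the respiratory chain, 37 of 39 did (84.7 and 79.7), and among cytosolic ribosomal proteins 74 of 82 did (78.3 and 80.7). All 26 genes of the general transcription machinery, 13 of 14 of the proteasome core, 32 of 34 aminoacyl-tRNA synthetases and 50 of 55 initiation factors had a region. Mrps35, of the small mitochondrial ribosomal subunit, had fold percentiles of 99.5, 99.3, 99.6 and 99.2 with 625, 232, 350 and 418 fragments. Ndufb2, a complex I subunit, had 967, 377, 466 and 613 fragments and percentiles of 99.2 to 99.7. Groups were not uniform: Rpl19, of the large ribosomal subunit, which shares its region with Cacnb1, had 159, 67, 102 and 121 fragments and fold percentiles from 2.12 to 7.16.

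Zinc finger genes named Zfp, many of which encode repressors of transposable elements, had a region at 305 of 397 genes, with medians of 79.8 by fold and 67.3 by fragments. Local background there was 3.69 ± 0.08 times the library background against 5.71 ± 0.33 times over all genes with a region (SD, n = 4 libraries). Genes of the replication-dependent histones, which are expressed in dividing cells and lie in clusters, stood at the other end. Of 67, 57 had a region, on 44 distinct regions, with medians of 28.6 by fold and 84.5 by fragments. Local background there was 23.6 ± 2.14 times the library background and the summits stood 139 ± 12.1 times above it. At H3c11 the summit had 689 and 225 fragments in WT and 287 and 378 in KO over local backgrounds of 245, 92.9, 90.1 and 135, which gave fold percentiles of 1.37, 0.561, 3.98 and 1.73.

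Olfactory and vomeronasal receptor, keratin and beta-defensin genes, used mostly in other tissues, were rarely represented. Only 4 of 1109 olfactory receptor genes, 2 of 350 vomeronasal receptor genes, 4 of 53 keratin genes and 0 of 42 beta-defensin genes had a gene-boundary region. Olfr631, whose region (chr7:103915200-103915810) had 222 and 54 fragments in WT and 37 and 93 in KO, lies close to the beta-globin genes on the same chromosome. Of 39 Hox genes 14 had a region, with median lowest percentiles of 13.5 by fold and 6.48 by fragments. For clustered protocadherins, 21 of 55 genes were reached by only 4 distinct regions. Solute carriers, which include both widely and narrowly used transporters, stood near the value over all genes, with a region at 213 of 354.

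At most red cell gene lists the rank by fold was well under the rank by fragments. For heme synthesis, 11 of 12 genes had one, with median lowest percentiles of 47.6 by fold and 87.9 by fragments. For erythroid transcription factors, 19 of 22 did (15.3 and 77.5), for the red cell membrane and skeleton 17 of 20 (26.6 and 70.2), for iron and transferrin uptake 8 of 12 (64.4 and 83.3), for erythropoietin signalling 6 of 10 (48.2 and 78.5), and for globins 6 of 9 (4.33 and 69.3). Against the medians over all genes with a region, 70.5 by fold and 74.0 by fragments, every one of these lists was lower by fold, while globins and red cell membrane genes were also lower by fragments. Local background at erythroid transcription factors was 18.5 ± 1.10 times the library background, at heme genes 18.1 ± 1.07 times and at globins 14.8 ± 4.32 times, against 5.71 ± 0.33 times over all genes with a region (SD, n = 4 libraries). Median fold was 4.77 ± 0.15 at the transcription factors and 12.2 ± 0.67 over all genes with a region.

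Single red cell genes varied. Klf1, the erythroid Krüppel-like activator (chr8:84900895-84902179), had 451 and 178 fragments in WT and 144 and 203 in KO over local backgrounds of 125, 53.2, 53.4 and 71.4. Its fold percentiles were 5.34, 3.92, 1.52 and 1.82. Alas2, the erythroid form of the first enzyme of heme synthesis, had 165, 59, 53 and 86 fragments and fold percentiles of 11.4, 16.2, 29.4 and 15.0. Alas1, the form used in all tissues, had 350, 143, 209 and 250 fragments over lower backgrounds, and fold percentiles of 83.8 to 89.4. Bach1 ranked high by both, with 1568, 594, 767 and 900 fragments and lowest percentiles of 80.1 by fold and 99.1 by fragments. Tfrc, the transferrin receptor, had 1149, 416, 495 and 596 fragments, and Epor, the erythropoietin receptor, had 610, 210, 212 and 330.

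A missing region did not always mean a closed gene. Of 7505 genes without a gene-boundary region and with a start in the RefSeq table, 974 (13.0%) had a shared region within 1 kb of another listed start. Gata1, Ikzf1, Stat5a, Stat5b, Bcl2l1, Socs3 and Uros were among them. At these genes the outermost annotated end, which the choice of regions used, was not the start that carried the shared peak.

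Genes of BAF and PBAF remodelling complexes, named in the series title through BRG1, ranked high by both measures. Of 27 listed genes 23 had a region, with median lowest percentiles of 78.6 by fold and 91.7 by fragments. Smarca4, which encodes BRG1 (chr9:21615582-21616852), had 1124 and 458 fragments in WT and 574 and 691 in KO and fold percentiles of 82.2, 82.5, 84.7 and 84.0. Smarcd1 ranked highest of the list by fold, with percentiles of 98.7, 98.6, 99.1 and 99.1. Arid1a, the gene of a DNA-binding BAF subunit, was the lowest, with percentiles of 8.60, 7.72, 8.07 and 10.9 although it had 829, 382, 443 and 564 fragments.

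Marker lists of other cell types, some of liver and some of other tissues, had a region at 46.7% of genes or fewer, against 56.6% of all genes. Of 24 hepatocyte genes 11 had one, with median lowest percentiles of 12.3 by fold and 28.9 by fragments, and the fragments at the summit were 11.8 ± 0.74 times the library background against 85.5 ± 5.44 times over all genes with a region (SD, n = 4). Hnf4a, a hepatocyte regulator, had 26, 12, 15 and 15 fragments, and Foxa3, which shares its region with the widely used gene Sympk, had 708, 281, 353 and 391. A region was present at 4 of 14 macrophage, 2 of 13 granulocyte, 3 of 15 lymphocyte, 5 of 13 endothelial and stellate, 5 of 12 megakaryocyte, 7 of 15 neuron and 1 of 14 striated muscle genes.

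**Figure D3:**
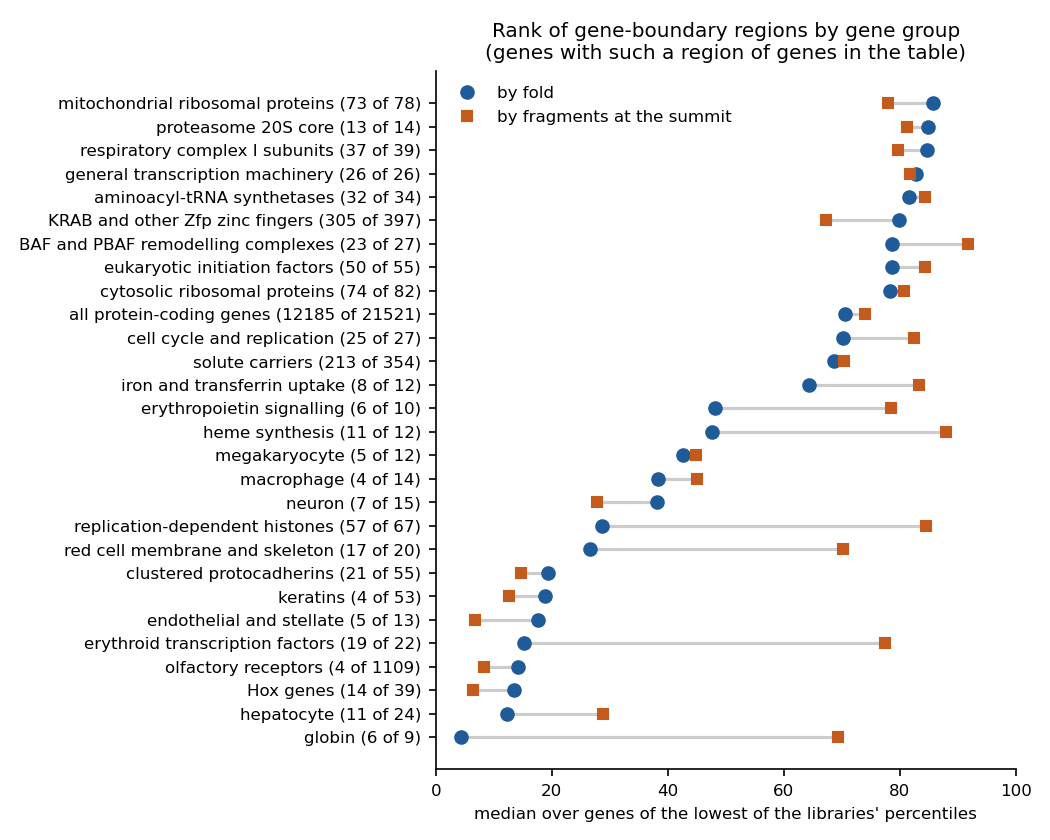
Median over the genes of each group of the lowest of the 4 library percentiles among shared regions, by fold (blue circles) and by fragments at the summit (orange squares), for groups with at least 4 distinct regions. Housekeeping groups are high by both, and globins, erythroid transcription factors, red cell membrane genes and histones stand much lower by fold than by fragments, with globins and membrane genes under all genes by both.

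Promoters with a gene-boundary region were rich in CG. A promoter here is the 250 bases before and 50 bases after a start, from RefSeq, for the 12503 of 17274 genes of known strand with a listed start within 50 bp of the gene's outer start. The 6867 promoters with a gene-boundary region had a median GC content of 61.3% and 21 CG dinucleotides. The 638 with a peak in some libraries had 55.3% and 8, and the 4998 without had 45.3% and 2. Of promoters with a ratio of observed to expected CG of 0.6 or more, 92.7% had a gene-boundary region, against 22.9% of the others.

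Motif matches were counted on both strands of these windows. GGGCGG was in 44.1% of all promoters, 68.7% of those with a region and 10.8% of those without. CCGGAAG, the ETS core, was in 11.9%, 19.6% and 2.3%, the NRF1 motif in 8.67%, 15.0% and 0.760%, and AAGATGGCG of YY1 in 1.98%, 3.52% and 0.0800%. The KLF1-type box CCNCNCCCN, which can overlap the GC box, was in 53.3%, 71.0% and 28.0%. CCAAT did not separate them, at 41.2%, 40.9% and 42.3%. AGATAA, the GATA motif, was in 10.9%, 5.96% and 17.7%, and TATAAA in 15.5%, 6.77% and 27.9%, both less often with a region than without. The E-box CAGNTG of TAL1 was in 48.3%, 42.5% and 55.5%, the MYC and USF box CACGTG in 7.93%, 11.1% and 3.80%, the CREB site in 2.48%, 3.84% and 0.780%, and the ZBTB33-like motif in 0.664%, 1.09% and 0.120%. CG-containing motifs are met more often where GC content is higher, and these shares were not adjusted for it.

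Within the gene-boundary regions, ETS and NRF1 matches were more frequent at higher fold rank. In 4 groups of equal size from the lowest rank to the highest, CCGGAAG was in 7.11%, 17.1%, 25.1% and 29.3% of promoters. The NRF1 motif was in 7.45%, 14.8%, 18.4% and 19.3%. Median GC content in the same groups was 61.0%, 63.3%, 61.5% and 59.3%, the number of CG was 17, 23, 23 and 21, and the ratio of observed to expected CG was 0.67, 0.80, 0.82 and 0.81. Both motifs contain CG, and the part of base composition in these shares was not tested. GC boxes were most frequent in the second group, at 74.6%, and were in 65.0% of the highest. By width instead, from the narrowest group to the widest, GC content went from 57.7% to 64.7% and GC boxes from 59.8% to 75.7%.

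**Figure D4:**
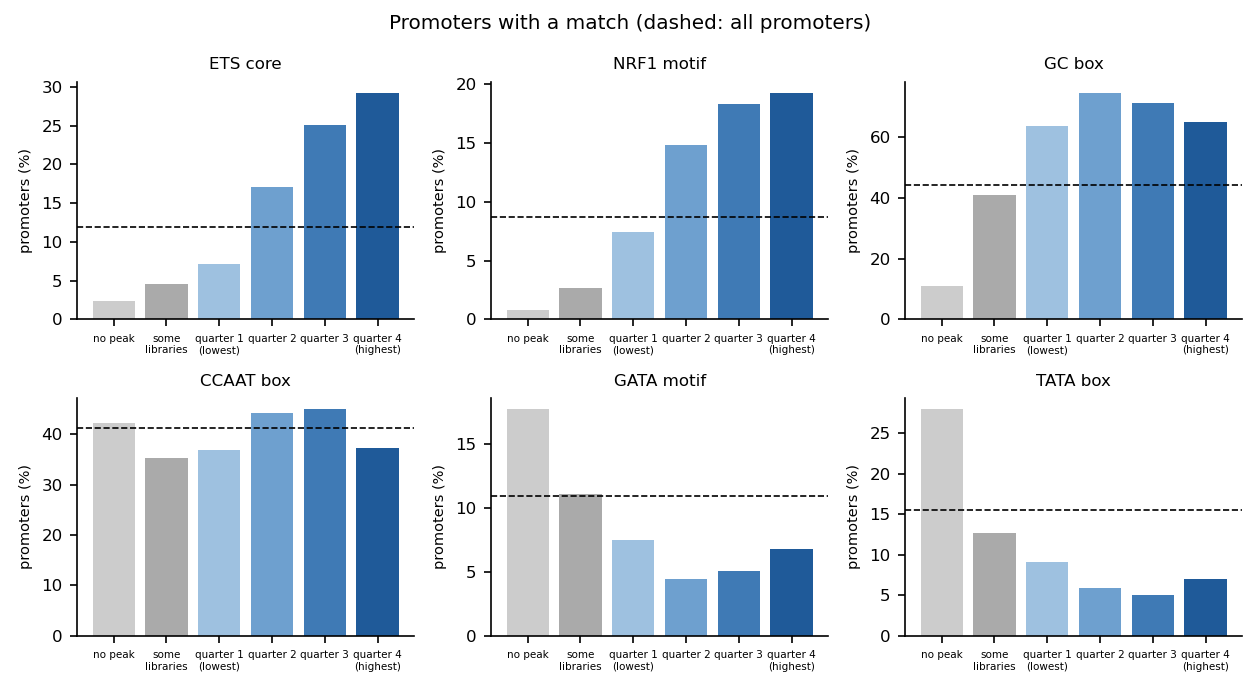
Percent of RefSeq promoters with a match to each motif, for promoters without a peak, with a peak in some libraries, and with a gene-boundary region in 4 equal groups of fold rank, the lowest on the left. ETS and NRF1 matches are more frequent at higher rank, the dashed line gives the share over all 12503 promoters, and CCAAT shows little trend.

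Between genotypes, gene-boundary regions as a class stood close together. The WT median fold percentile was 73.0 ± 0.37 and that of KO 73.7 ± 0.50 (SD over 2 libraries), a difference of 0.766 points (exact permutation p = 0.333, the smallest that 2 against 2 allow). Median peak width was 1008 ± 43.8 bp in WT and 1021 ± 48.1 bp in KO (exact permutation p = 0.667). The share of a library's peaks in these regions was 24.1% and 34.0% in WT and 32.5% and 26.7% in KO (exact permutation p = 1). The replicates of a genotype stood farther apart than the genotypes in width and share.

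Few regions differed in rank. In 230 gene-boundary regions (2.02%) both KO percentiles were at least 10 points above both WT percentiles, against 2.36% of all shared regions. In 64 (0.563%) both were at least 10 points below, against 2.15% of all shared regions. These are descriptions of ranks, with no test. With 1 library left out the rule is looser, and the counts became 665 and 253 without WT replicate 1, 481 and 206 without WT replicate 2, 402 and 246 without KO replicate 1, and 801 and 234 without KO replicate 2. The shares over all shared regions are not given for these settings, so these counts alone tell nothing particular to gene-boundary regions. The widest upward gap was at Htr7, a serotonin receptor gene, with percentiles of 20.7 and 22.3 in WT and 64.8 and 59.6 in KO. It rested on 34 and 15 fragments in WT and 33 and 42 in KO. Fggy, a carbohydrate kinase gene, followed with 45.7 and 42.9 in WT and 86.7 and 82.2 in KO, then Rapgef4, Add2 and Mapk8ip1. The widest downward gap was at Tmed6, with percentiles of 71.8 and 75 in WT and 31.5 and 27.1 in KO on 93, 45, 18 and 25 fragments, then 4931414P19Rik, Rps15a, Mboat2 and Stk32a. The 4931414P19Rik, Rps15a and Mboat2 regions lay at gene ends, and Rps15a had another region with a lowest fold percentile of 78.0. All regions named for their gaps were weak, with lowest fragment percentiles of 26.0 or less.

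More regions had more fragments in KO than had fewer. Log2 fragments at the summit were compared with limma over all 27465 shared regions, after cyclic loess scaling and with a mean-variance trend, at a Benjamini-Hochberg adjusted p of 0.05. Of the gene-boundary regions, 153 (1.35%) had more fragments in KO, against 0.75% of all shared regions, and 15 (0.132%) had fewer, against 0.266%. In either direction 1.02% of all shared regions were called. At an unadjusted p of 0.05, 1249 gene-boundary regions (10.99%) had more and 518 (4.56%) fewer, against 7.49% and 8.80% of all shared regions, while other shared regions leaned the other way with 809 more and 1899 fewer. The median log2 difference was 0.039 in gene-boundary regions and −0.054 in other shared regions. The loess scaling set the median over all shared regions at −0.001, so the opposite leans of the 2 classes are not separate results. The difference was not even within the class, as regions at gene ends had −0.083. Under scaling to the library backgrounds the median was 0.008 in gene-boundary regions and −0.024 over all shared regions. Under scaling to the library medians these were 0.081 and 0.049.

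These counts depended on the fit. With no mean-variance trend in the limma fit, 0 regions passed at the adjusted threshold, so every call named below is lost there. Without WT replicate 1 the counts were 389 more and 27 fewer, or 3.66% in either direction against 2.06% of all shared regions. Without WT replicate 2 they were 184 and 65 (2.12% against 1.83%), and without KO replicate 1 they were 231 and 14 (2.11% against 1.45%). Without KO replicate 2 they were 688 and 186, and gene-boundary regions were then called less often than all shared regions, 7.66% against 9.79%. The same order was met with scaling to the library medians, 189 and 32 (1.94% against 2.75%), and to the library backgrounds, 157 and 60 (1.91% against 3.78%). Of the 168 calls, 99 recurred under the first of these scalings and 98 under the second. The replicate block gave 339 and 48 (3.41% against 2.73%), and peaks of fold 6 or more gave 88 and 6 (1.04% against 1.02%).

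The called gains included a subunit gene of the PBAF complex. Kctd6, which encodes an adaptor of a ubiquitin ligase (chr14:8213660-8214883), had 571 and 209 fragments in WT and 556 and 678 in KO. Scaled to a common depth, WT had 328 and 301 and KO had 682 and 656, so the groups did not overlap, and the log2 difference was 1.09 ± 0.08 (SE; limma adjusted p = 2.46e-05). Pbrm1 encodes the defining subunit of PBAF, and its region (chr14:31018597-31019655) is shared with Gnl3. It had 853 and 283 fragments in WT and 651 and 865 in KO, or 497 and 409 against 782 and 847 on the common scale. Its log2 difference was 0.85 ± 0.09 (limma adjusted p = 0.00026), and it was the only call among the 23 regions of remodelling genes. Smarca4 differed by 0.05 (limma adjusted p = 0.772). Ppp1r13b and Phlda3, both tied to the p53 and AKT pathways, Zfp609, Ube2o, Fam124a and Zdhhc18 were the other gains with the lowest p, with log2 differences from 0.76 to 1.76. By fold rank the gains named here, except Phlda3, were higher in both KO libraries. Phlda3 had fold percentiles of 90.5 and 87.9 in WT and 88.0 and 78.9 in KO. Its local backgrounds were 16.4 and 6.61 fragments in WT and 21.5 and 28.2 in KO.

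The losses were fewer. Sltm, which encodes a nuclear RNA-binding protein, had 2566 and 1073 fragments in WT and 822 and 964 in KO at a region 772 bp from its start (chr9:70542234-70543425). On the common scale it fell from 1548 and 1559 to 934 and 969, a log2 difference of −0.71 ± 0.05 (SE; limma adjusted p = 5.61e-06). By fold it hardly moved, with percentiles of 92.8 and 92.8 in WT and 92.1 and 92.1 in KO. Its local backgrounds were 135 and 62.1 fragments in WT and 46.9 and 57.0 in KO. The histone gene H4f16 (chr6:136803229-136804564) fell from 901 and 855 to 506 and 565 (log2 −0.72, limma adjusted p = 0.000225). Its fold percentiles fell too, from 56.1 and 57.7 in WT to 36.9 and 30.8 in KO. The Sltm and H4f16 regions missed the threshold under scaling to the library medians, with limma adjusted p of 0.443 and 0.139. Rnf144b, Tmed6, Chac1, Zfp260, Glmn and Itpr2 were the next losses, with log2 differences from −0.62 to −1.38. The Glmn region lay 782 bp from the gene's end. By fold rank Tmed6, Zfp260, Glmn and Itpr2 were lower in both KO libraries. Rnf144b was not, with fold percentiles of 94.2 and 89.1 in WT and 90.6 and 92.2 in KO. Nor was Chac1, with 74.1 and 76.7 in WT and 77.2 and 76.7 in KO.

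Calls of more fragments in KO were concentrated at promoters of high GC content. In 4 groups of 1601 gene-boundary regions with such a promoter, from the lowest GC content to the highest, 4, 4, 14 and 65 had more fragments in KO. The median log2 difference in these groups was 0.01, 0.01, 0.04 and 0.07. The replicates of KO also differed along GC content, with KO replicate 1 minus KO replicate 2 at 0.00, 0.02, 0.03 and 0.07, whereas WT replicate 1 minus WT replicate 2 lay between −0.01 and 0.01. In the group of highest GC content, KO replicate 1 exceeded both WT libraries by 0.11, and KO replicate 2 exceeded them by 0.03. The 92 promoters of called gains had a median GC content of 72.3% and 36 CG, against 61.3% and 21 at all gene-boundary promoters. The part of GC content in the calls was not tested.

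At the globin genes the differences had both signs. Hbb-bs (chr7:103827592-103828343) had 708 and 227 fragments in WT and 151 and 318 in KO, or 399 and 326 against 192 and 302 on the common scale. The groups did not overlap, but KO replicate 2 stood close to WT, and the log2 difference of −0.58 ± 0.17 did not pass (SE; limma adjusted p = 0.107). It passed without WT replicate 2 (limma adjusted p = 0.000287), without KO replicate 2 (1.93e-05) and with scaling to the library backgrounds (0.0138), and with the replicate block (0.00504). Hbb-bt had 358 and 262 in WT and 195 and 305 in KO on that scale, and the groups overlapped. Its log2 difference was −0.33 with all libraries, 0.0051 without KO replicate 1 and −0.64 without KO replicate 2. The Hba-a2 region, 981 bp from the gene's end (chr11:32297938-32299111), had 264 and 232 in WT and 109 and 178 in KO, with a log2 difference of −0.83 ± 0.19 (limma adjusted p = 0.0491), the only globin call. It missed the threshold without WT replicate 1 (limma adjusted p = 0.0609), without KO replicate 1 (0.115), on autosomes alone (0.0516) and with robust moderation (0.0668). Hbq1a, a theta-globin gene next to it (chr11:32299852-32300743), went the other way, with 93.7 and 115 in WT and 178 and 163 in KO (log2 0.72, limma adjusted p = 0.0526). Without WT replicate 2 or KO replicate 2 its limma adjusted p was 0.0251 or 0.00485, and without WT replicate 1 it was 0.254. The alpha-globin genes are duplicated with almost the same sequence, as are Hbq1a and Hbq1b, so placement of fragments between copies is uncertain.

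Some other red cell regions had fewer fragments in KO without passing the test. Klf1 had 251 and 255 in WT and 187 and 190 in KO on the common scale, with no overlap and a log2 difference of −0.42 ± 0.12 (SE; limma adjusted p = 0.103). Slc4a1, the band 3 anion exchanger, had 284 and 250 in WT and 185 and 221 in KO (log2 −0.40, limma adjusted p = 0.149). Epb42, the membrane skeleton protein 4.2, had 421 and 436 in WT and 253 and 366 in KO (log2 −0.50, limma adjusted p = 0.0946). At Slc4a1 and Epb42, KO replicate 1 was the lowest library. Without KO replicate 2 these regions passed, with limma adjusted p of 0.0448 at Klf1, 0.0145 at Slc4a1 and 5.03e-05 at Epb42. Epb42 also passed without WT replicate 1 (limma adjusted p = 0.022), without WT replicate 2 (0.0281) and with the replicate block (0.00387). By list, fragments were lower in KO at 12 of 17 membrane genes, 8 of 11 heme genes, 4 of 6 globins and 10 of 19 erythroid transcription factors. They were lower at 5 of 8 iron uptake genes but at only 1 of 6 erythropoietin signalling genes. Hba-a2 alone of all these passed. Over all genes with a region, 4299 of 10798 distinct regions were lower in KO. The counts depend on scaling: with the library medians 10, 6, 4, 7, 5 and 1 regions of these lists, in that order, were lower. Erythroid transcription factors then leaned the other way, and 3122 regions were lower over all genes. With the library backgrounds 12, 7, 4 and 11 were lower, and 5124 over all genes. By fold rank these lists did not lean lower in KO. The median percentile of membrane genes was 31.8 and 32.1 in WT and 52.4 and 40.9 in KO. That of heme genes was 47.6 and 54.7 in WT and 60.8 and 55.5 in KO. Iron uptake genes were also higher in both KO libraries. At the other lists the genotypes overlapped. By the rule of 10 points, 2 membrane and 2 globin regions ranked higher in KO, and 0 regions of these lists ranked lower.

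**Figure D5:**
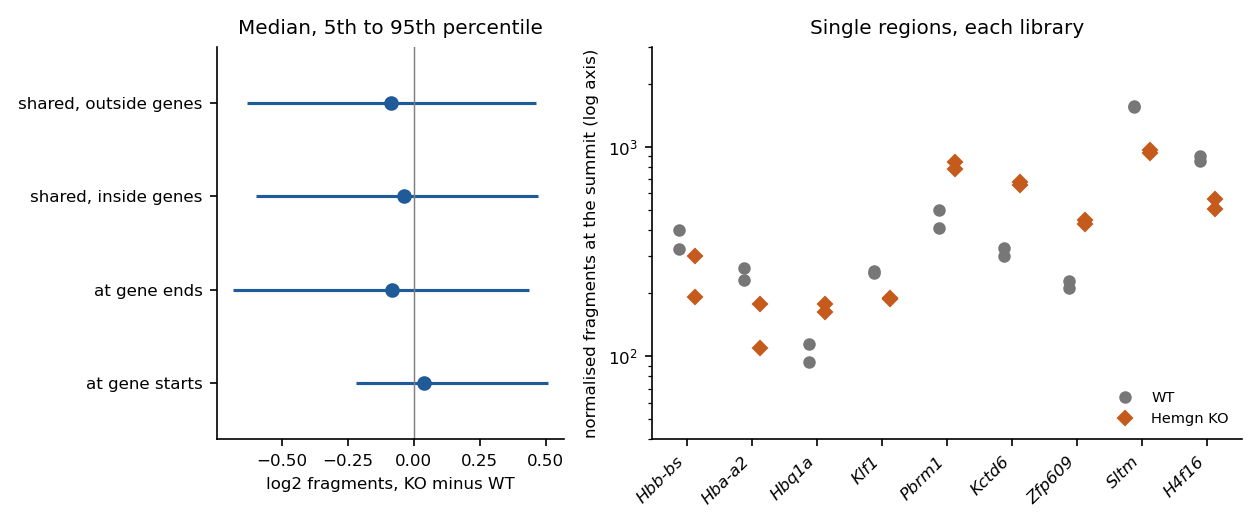
Left, median and 5th to 95th percentile of the log2 difference in fragments at the summit, KO minus WT, by class of shared region. Right, normalised fragments at the summit on a log axis for single regions in each library (grey circles WT, orange diamonds KO); Pbrm1, Kctd6 and Zfp609 stand higher in both KO libraries, Sltm and H4f16 lower, and the Hbb-bs and Hba-a2 libraries of KO lie far apart.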

How the data were processed

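ATAC-seq was done on 2 WT and 2 Hemgn KO samples of embryonic day 14.5 mouse fetal liver, and 1 peak list per library was used. The submitters' processing notes name Bowtie2 2.3.5, Picard 2.21.4, SAMtools 1.9 and MACS2 2.2.7.1, and list coordinates are printed as deposited, with no build stated for them in the labels or files. The authors deposited a fold ratio over local background, −log10 p and −log10 q for each peak, and a score of 10 times the −log10 q. Replicates are numbered as in the labels, which differ from the numbers in the peaks' own names.

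Fragments at each summit and the local background were recovered from fold, taken as (fragments + 1) / (background + 1), and −log10 p, and came out whole within 0.1 for all peaks. Library depth is known only through these values. Peaks on chromosomes 1 to 19 and X were merged at 1 shared bp. Genes came from the RefSeq table of GRCm38.p6, and the match of the lists' coordinates to that assembly is judged from the position of summits at starts. Log2 fragments were scaled by cyclic loess and tested with limma 3.58.1 in R 4.3.3 over all shared regions, with Benjamini-Hochberg adjustment, a test added after the data were seen. Scaled fragments are called the common scale. Other work used Python 3.11.15, pandas 2.3.3, numpy 2.4.6, scipy 1.17.1 and matplotlib 3.10.9, and the code was tested on simulated data. Single values were compared by exact two-sided permutation of libraries (2 against 2) or sign flips over 4 libraries.

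Members and gene lists were chosen with earlier results of these data known. Genes named are the highest by fold, the widest, those with 3 regions, those with the widest rank gaps, the 8 lowest limma p in each direction, list members and extremes of families. Same-numbered libraries did not deviate together (correlation −0.07), so replicate numbers were not treated as pairs. Alternatives were other distances, overlaps, fold minimums, list lengths, rank measures, gaps, scalings, a fit without trend, a replicate block and leaving out each library. Some named genes are not reported here.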

Additional observations from a re-analysis of the deposited data

How the results depend on the processing

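The number of gene-boundary regions ran from 9082 to 12931 over the alternatives, the genes with one from 10195 to 13237, the difference in percentile from other shared regions from 31.1 to 39.9 points, and the difference in width from 202 to 405 bp. The KO minus WT difference in percentile stayed between 0.185 and 1.11 points. That in the share of peaks changed sign at equal list lengths, to −0.211 by fold and −0.233 by q, and ran from −4.40 to 5.67 with 1 library left out. That in width ran from −19.5 to 46.75 bp with 1 library left out, and the log2 difference of Hbb-bt from −0.64 to 0.0051. Regions ranked lower in KO numbered 39 within 500 bp, 101 at fold 6 or more, 41 ranked by q, 280 and 8 at gaps of 5 and 20 points, and 206 to 253 with 1 library left out. Those ranked higher numbered 608 and 37 at those gaps and 402 to 801 with 1 library left out. Regions with fewer fragments in KO numbered 9 within 500 bp, 6 at fold 6 or more, 32 with median scaling, 60 with background scaling, 0 without the trend, 48 with the replicate block and 14 to 186 with 1 library left out. Those with more numbered 88 at fold 6 or more, 0 without the trend, 339 with the replicate block and 184 to 688 with 1 library left out. Replicate numbers are only shared, and the crossed pairing gave a correlation of 0.07. With 2 libraries per genotype that is the same-number value with its sign reversed, so it is no further check. With the replicate block the exact permutation p was 0.5, 1 and 1 for percentile, width and share. Of the 168 called regions, 99 were called with median scaling and 98 with background scaling. Fewer samples loosen the rank rule by construction, and the cause of the other moves was not tested. Shares over all shared regions are not given beside the counts of ranked regions here, so these counts tell nothing particular to gene-boundary regions. With 1 library in an arm, limma assumes that it varies like the other genotype. The lists hold only called peaks, so openness below the authors' threshold was not measured, and weak regions rest on few fragments.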
